A study of Mus musculus with 17 samples.

Results

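The transferrin receptor cycle and its iron sensors were represented by 7 genes out of the 26131 genes counted: Tfrc, Trf, Slc11a2, Steap3, Aco1, Ireb2 and Hfe. They were chosen by name for their role in cellular iron uptake because both conjugates in the study are carried by binding to the transferrin receptor. Their levels were read in every animal and deposited cell type label of a single-nucleus RNA-seq experiment on the posterior brain of female mice that were homozygous for a human transferrin receptor knock-in (hTfR KI HOM) and 2.3 months old. Every animal, controls included, carried this knock-in allele and received 4 intravenous doses over 24 days, with tissue taken 72 h after the last dose. The groups were saline (n = 4), the free antisense oligonucleotide against Malat1 (Malat1 ASO, 2 mg/kg, n = 4), the same kind of oligonucleotide on an antibody to the receptor (anti-TfR:Malat1, 50 mg/kg, n = 6) and on the transport vehicle (OTV:Malat1, 50 mg/kg, n = 3). How much of the Tfrc transcript is altered by the knock-in, and so how much of it is counted against the mouse genome, is not given in the sources used here. All groups share the allele, so this bears on the Tfrc level and not on which group carries it.

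Iron enters most cells bound to transferrin, the plasma iron carrier encoded by Trf. The loaded carrier binds the transferrin receptor (Tfrc) and is taken up into endosomes, where acid releases the iron, STEAP3 reduces it and the transporter DMT1 (Slc11a2) moves it into the cytosol, while receptor and carrier return to the surface. The iron regulatory proteins IRP1 (Aco1) and IRP2 (Ireb2) bind RNA hairpins when cytosolic iron is low and thereby stabilise the receptor's mRNA, and HFE binds the receptor itself. In brain, endothelial cells of the capillaries are known for carrying the receptor, which is why it is used as a route across the blood-brain barrier, and oligodendrocytes are known for making transferrin.

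Between 13841 and 18365 nuclei and between 55393588 and 79866411 UMIs (unique molecular identifiers, each counting 1 captured RNA molecule) were available per animal. The median nucleus held 2894 to 4052 UMIs, and pairs of animals shared 0.330 to 0.623% of their barcodes. The targeted RNA was read first, as a check of the labels. In oligodendrocytes Malat1 stood at 102140 ± 17495 CPM (UMIs per 1000000 UMIs; SD, n = 4) after saline and at 97330 ± 20794 (n = 4) after the free oligonucleotide. It stood at 69655 ± 10877 (n = 6) with the antibody and at 16681 ± 2049 (n = 3) with the transport vehicle. Levels below are CPM of the summed UMIs of 1 animal and label, Malat1 included in the total, and they were not compared between genes. A lower share of Malat1 in the total by itself raises the CPM of all other genes, in oligodendrocytes most so with the transport vehicle. Fitted differences use TMM factors, which scale the animals differently from CPM. The animals carry a deposited batch number, of 4 in all, whose meaning is not given. Saline and Malat1 ASO replicates 1 to 4 were in batches 1 to 4, and anti-TfR:Malat1 replicates 1 to 6 in batches 1, 2, 3, 3, 4 and 4. OTV:Malat1 replicates 1 to 3 were in batches 2, 3 and 4, so this group had no animal in batch 1.

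Across the 7 genes, no treatment changed any member past the test. The counts are of RNA in nuclei, and neither mRNA in the cytosol nor receptor protein was measured. In 155 comparisons that passed the filter on low counts (5 contrasts in all nuclei and in 6 labels), edgeR's quasi-likelihood test called 0 at a Benjamini-Hochberg adjusted p under 0.05. The lowest adjusted p was 0.968, and 3 comparisons had an unadjusted p under 0.05. DESeq2 also called 0, again with 3 under that unadjusted p. All 7 members were tested in all nuclei and in neurons. Of the others, 5 were tested in oligodendrocytes (Aco1, Ireb2, Trf, Slc11a2 and Tfrc), 5 in astrocytes (Steap3, Aco1, Ireb2, Trf and Tfrc), 4 in microglia (Aco1, Ireb2, Trf and Slc11a2), 2 in the vascular label (Ireb2 and Trf) and 1, Trf, in perivascular macrophages.

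Few genes of any kind were called, so nothing particular to the members follows from their count. Malat1, the targeted RNA, was in these fits, and it was not called wherever the share below is 0%. A count of 0 calls therefore does not show that a member was unchanged. Against saline, the share of all tested genes that was called was 0% for Malat1 ASO and for anti-TfR:Malat1 in each of these tests, and for OTV:Malat1 it was 0.0208% in oligodendrocytes, 0.0117% in astrocytes, 0.011% in microglia and 0% elsewhere. For both conjugates against saline and Malat1 ASO together it was 0.212% in perivascular macrophages, 0.0139% in oligodendrocytes, 0.0117% in astrocytes, 0.011% in microglia and 0% elsewhere. For OTV:Malat1 against anti-TfR:Malat1 it was 0.0117% in astrocytes, 0.00694% in oligodendrocytes and 0% elsewhere. In none of 124 comparisons, which held no member in endothelial-led nuclei, did the animals of the groups separate without overlap in a member. Over all nuclei such a separation from saline was seen in 0.636% of genes for Malat1 ASO, 0.351% for anti-TfR:Malat1 and 3.83% for OTV:Malat1, and between the conjugates in 1.97%. In neurons these shares were 0.66%, 0.364%, 3.79% and 2.53%. In the other tested labels they ran from 0.929 to 2.61% for Malat1 ASO, from 0.332 to 0.761% for anti-TfR:Malat1, from 4.51% in perivascular macrophages to 11.8% in oligodendrocytes for OTV:Malat1, and from 1.74 to 3.97% between the conjugates. Groups of fewer animals separate more often by chance, and OTV:Malat1 had the fewest, so these shares do not rank the treatments. Fitted differences of the members ran from -0.54 to 0.92 on the log2 scale.

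**Figure D1:**
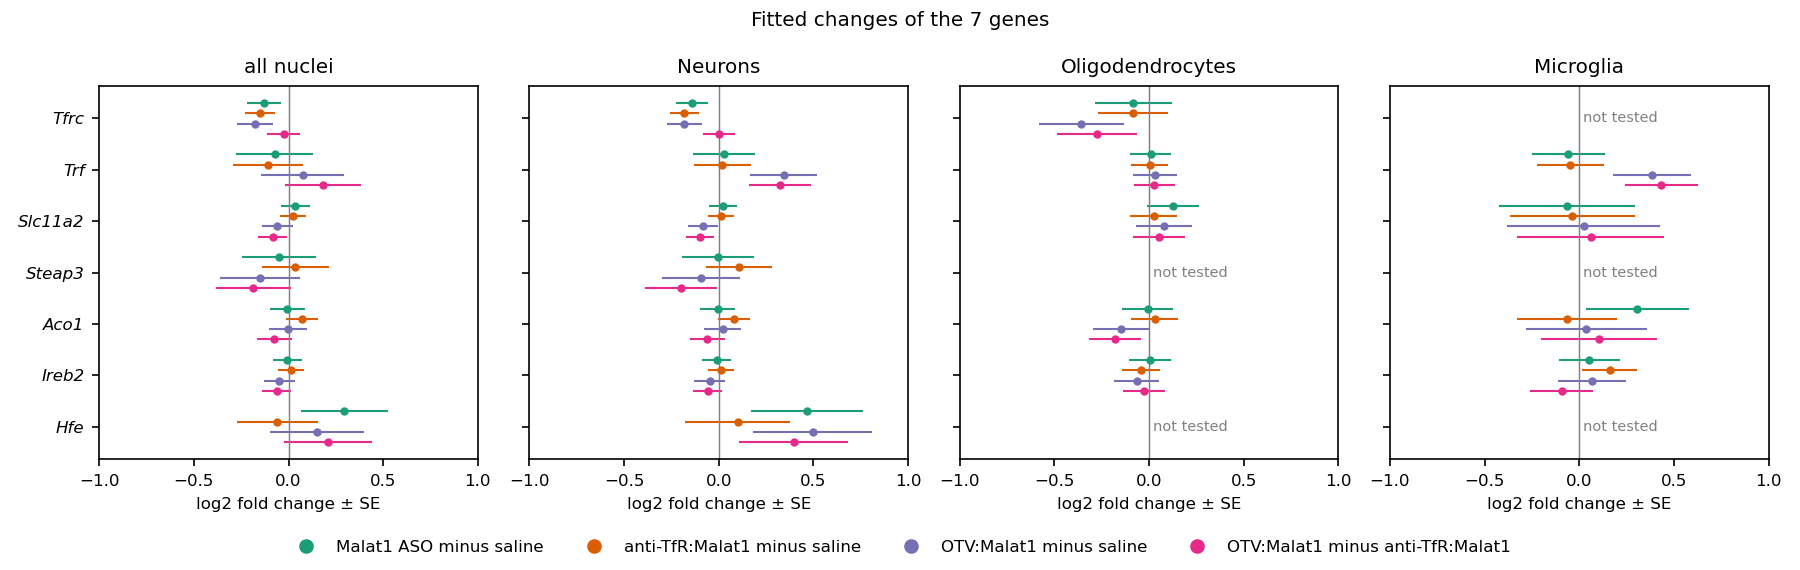
Fitted log2 fold changes of the 7 genes, with 1 standard error on each side, by contrast and cell type, from edgeR's quasi-likelihood fit. Points lie on both sides of 0, and none of the 155 comparisons was called.

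Tfrc encodes the receptor that both conjugates bind. The mouse gene lies on the plus strand of chromosome 16 (GRCm38, 32608920 to 32632794). Its mRNA is the only one of the 7 that held a match to a strict pattern for the hairpin that iron regulatory proteins bind. The pattern was a C, a stem of 5 paired bases (G-T pairs allowed) and the loop CAGTGN, 17 bases in all. Hairpins with another stem or loop are missed by it. The 4 matches lie in the 3′ UTR, in exon 19 of 19 of transcript Tfrc-201. They are shown because the sensors act on the receptor's mRNA through hairpins of this kind. Capitals mark the loop.
Tfrc hairpin at chr16:32631225-32631241, plus strand: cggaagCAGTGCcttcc
Tfrc hairpin at chr16:32631604-32631620, plus strand: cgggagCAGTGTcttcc
Tfrc hairpin at chr16:32631669-32631685, plus strand: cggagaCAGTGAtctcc
Tfrc hairpin at chr16:32631716-32631732, plus strand: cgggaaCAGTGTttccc
The same pattern occurred in 0.961% of 58797 protein-coding transcripts of GENCODE M21, and in 294 of 21877 genes. A match describes letters only, and no match in another member says only that these letters are not in its transcripts.

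Summed over all nuclei, Tfrc read 24.2, 25.7, 20.9 and 25.4 CPM in the saline animals and 22.1, 22.8, 18.6 and 23.9 in the Malat1 ASO animals. The 6 anti-TfR:Malat1 animals ran from 18.9 through a median of 21.9 to 22.0 CPM, and the OTV:Malat1 animals read 21.1, 23.6 and 22.3. Of the saline animals, 3 of 4 were above all conjugate animals, but saline replicate 3 fell among them, so every pair of groups overlapped. The mean was 24.0 ± 2.22 for saline and 21.9 ± 2.28 for the free oligonucleotide, and with the antibody and the transport vehicle it was 21.2 ± 1.23 and 22.4 ± 1.25 (SD). The fitted log2 difference from saline was -0.13 (SE 0.089) for Malat1 ASO, -0.15 (SE 0.081) for anti-TfR:Malat1 and -0.18 (SE 0.096) for OTV:Malat1, with edgeR adjusted p-values of 0.999997, 0.999869 and 0.999977. The fitted difference of the transport vehicle from the antibody was -0.03 (SE 0.089), while their mean CPM lay in the opposite order, so its direction turned with the scaling. For both conjugates against the other groups it was -0.10, with a 95% interval from -0.22 to 0.02. The 3 differences from saline share the same 4 saline animals, and no difference between the free oligonucleotide and either conjugate was tested. Sums over all nuclei cannot tell fewer cells of a type from less RNA per cell.

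Neurons gave most of the Tfrc UMIs. There the saline animals read 26.9, 27.4, 21.8 and 26.9 CPM, the Malat1 ASO animals 24.9, 24.0, 19.5 and 24.6, and the OTV:Malat1 animals 22.6, 25.3 and 23.2. The anti-TfR:Malat1 animals ran from 20.5 through a median of 22.7 to 22.8. All groups overlapped, and replicate 3, from batch 3 in both, was the lowest animal of both the saline and the Malat1 ASO group. The fitted difference of anti-TfR:Malat1 from saline was -0.18 (SE 0.077, 95% interval -0.33 to -0.03), with an unadjusted edgeR p of 0.0288 and an adjusted p of 0.9997, and that of OTV:Malat1 was -0.18 (SE 0.092). Within batches, Tfrc in neurons was lower than saline in 4 of 4 batches for Malat1 ASO (log2 ratios -0.19 to -0.11), in 3 of 4 for anti-TfR:Malat1 (-0.39 to 0.06) and in 2 of 3 for OTV:Malat1 (-0.28 to 0.22).

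In oligodendrocytes Tfrc read 11.5, 14.9, 12 and 11.8 CPM in saline, 7.70, 11.8, 10.4 and 18.9 in Malat1 ASO and 9.06, 13.7 and 10.4 in OTV:Malat1, and ran from 9.0 through a median of 13 to 14.4 in anti-TfR:Malat1. The 1 Malat1 ASO animal at 18.9 lay above all others. The OTV:Malat1 difference from saline was -0.36 (SE 0.225), with an unadjusted p of 0.127 by edgeR's quasi-likelihood test. In astrocytes the anti-TfR:Malat1 difference was 0.32 (SE 0.358), with single animals of all groups between 8.30 and 25.8 CPM.

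**Figure D2:**
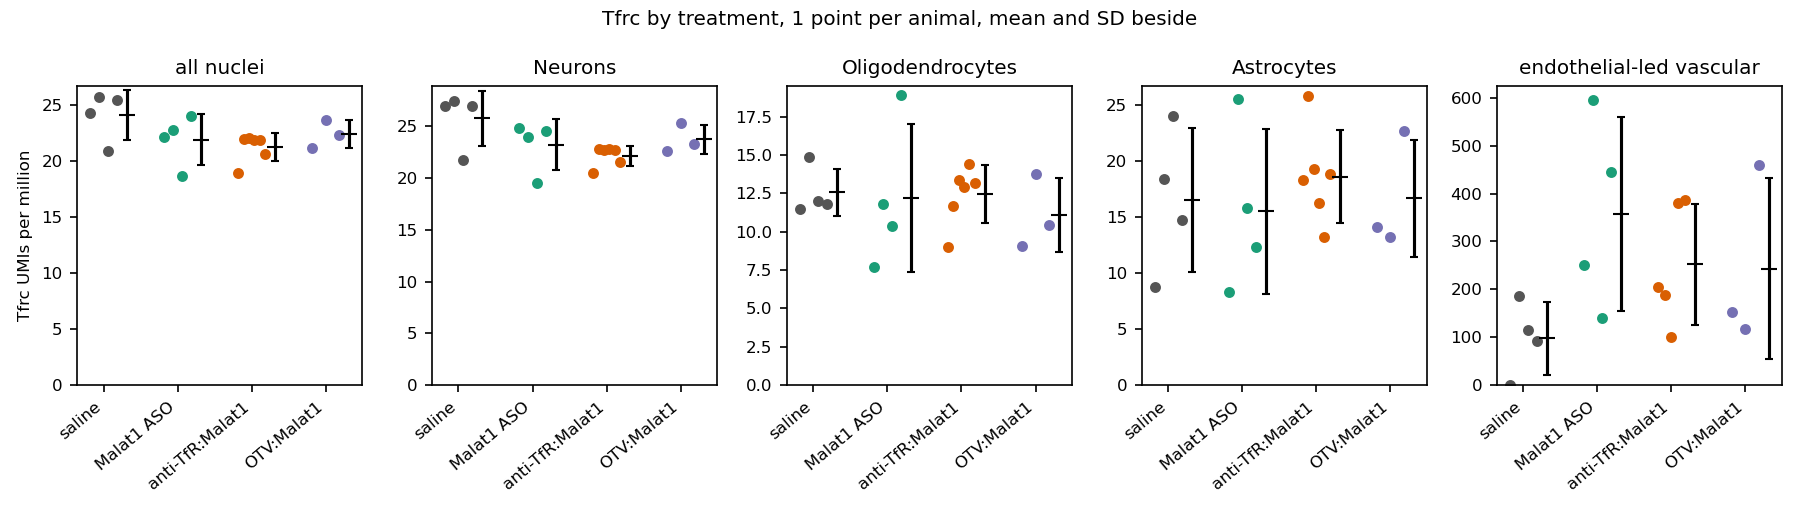
Tfrc level in CPM by treatment in all nuclei, neurons, oligodendrocytes, astrocytes and endothelial-led vascular nuclei, 1 point per animal with the mean and SD beside. In all nuclei the points lie between 18.6 and 25.7, and in the endothelial-led nuclei they spread from 0 to 595.

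The endothelial nuclei had to be taken from the deposited vascular label, which mixed kinds of cells. Of its 1226 nuclei, 184 were led by endothelial markers (Cldn5, Flt1, Pecam1 and 7 others), 393 by mural markers, 627 by fibroblast markers, and 22 by no single list. The split was made on these marker lists, so their levels only describe it: the endothelial list summed to 18707 CPM in the endothelial-led, 824 CPM in the mural-led and 175 CPM in the fibroblast-led nuclei. The kinds were not cleanly apart, since the mural list summed to 1861 CPM in the endothelial-led nuclei, against 6102 in the mural-led ones, and the fibroblast list to 1570 CPM in the mural-led nuclei, against 4439 in the fibroblast-led ones. A Tfrc UMI was found in 42 of the 184 (22.8%, exact binomial interval 17 to 29.6%; median depth 1095 UMIs). Fibroblast-led nuclei, at a median depth of 1226 UMIs, had one in 1.28%, mural-led nuclei in 2.04% and neurons, at a median depth of 4614 UMIs, in 10.6%. Intervals cover counting error only.

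Tfrc was highest in these endothelial-led nuclei, at 238 ± 166 CPM (SD over 16 animals with 5 or more such nuclei), against 7.80 ± 9.28 in fibroblast-led, 25.8 ± 39.9 in mural-led nuclei and 23.5 ± 2.25 in neurons. With the vascular label split, a choice made after seeing the data, edgeR's fit with animal as a block put the endothelial-led nuclei above neurons by 1.94 on the log2 scale (SE 0.243, adjusted p = 1.34e-12), above mural-led by 2.66 and above fibroblast-led nuclei by 3.98. Without TMM factors the first of these was 3.07. Markers of red cells moved with the endothelial-led nuclei: the list of 5 erythroid genes summed to 2734 CPM there, from 0 to 25261 in single animals, against 43.9 in fibroblast-led nuclei. The Tfrc level was 202 CPM in the 170 endothelial-led nuclei with no erythroid UMI and 144 CPM in the 14 with one.

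Whether treatment moved Tfrc in endothelial-led nuclei could be read from only 0 to 9 UMIs per animal. The saline animals had 0, 5, 3 and 3 Tfrc UMIs (0, 186, 114 and 91.8 CPM), the Malat1 ASO animals 1, 3, 3 and 5 (252, 595, 140 and 445 CPM) and the OTV:Malat1 animals 3, 2 and 5 (152, 117 and 460 CPM). The anti-TfR:Malat1 animals ran from 101 through 205 to 387 CPM, with 1 animal of 3 such nuclei and no Tfrc UMI left out. All groups overlapped, and 5 to 20 nuclei stood behind each value used. Within the 3 batches whose saline animal had a Tfrc UMI, the log2 ratio to saline was above 0 in 3 of 3 for Malat1 ASO (0.29 to 2.28), in 2 of 3 for anti-TfR:Malat1 (-0.17 to 2.06) and in 2 of 3 for OTV:Malat1 (-0.29 to 2.33). For each conjugate 1 of these was nearly level: anti-TfR:Malat1 read 188 against 186 CPM in batch 2, and OTV:Malat1 117 against 114 in batch 3. The other was batch 4, where anti-TfR:Malat1 read 380 and 387 and OTV:Malat1 460, against 91.8 CPM in a saline animal of 3 Tfrc UMIs. In batch 1, which held no OTV:Malat1 animal, the saline animal had 0 Tfrc UMIs. Pooled, Tfrc was 111 CPM in saline (exact Poisson interval 55.6 to 199), 288 with the free oligonucleotide (149 to 503), 233 with the antibody (151 to 344) and 210 with the transport vehicle (101 to 386), intervals that cover counting error only.

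No contrast passed the exact two-sided permutation test over animals, which did not use the batch. On the scale log2((UMIs + 0.5)/(total + 1) × 1000000), the difference from saline was 1.88 for Malat1 ASO (exact p = 0.0571), 1.28 for anti-TfR:Malat1 (exact p = 0.0635) and 1.20 for OTV:Malat1 (exact p = 0.229), and Benjamini-Hochberg values over the 5 contrasts of this exact test were 0.159, 0.159 and 0.381. As the doubled smaller tail, the exact test against saline cannot go below 0.0286 for Malat1 ASO and 0.0159 for anti-TfR:Malat1. With 3 animals against 4 it cannot go below 0.0571 for OTV:Malat1. Alone, none of these floors could pass the adjustment over 5 contrasts. Without saline replicate 1, from batch 1, the OTV:Malat1 difference from saline was 0.73 (exact permutation p = 0.4). This scale is not neutral to depth: the endothelial-led sums held 3973 to 21455 UMIs in Malat1 ASO animals and 12836 to 32696 in saline animals, and a gene with 0 UMIs in every animal would differ by 1.49 for Malat1 ASO, 0.19 for anti-TfR:Malat1 and 0.60 for OTV:Malat1. With the added 0.5 scaled to each animal's depth, an alternative added after seeing the data, the Tfrc differences were 1.79, 1.36 and 1.23, with exact permutation p-values of 0.0571, 0.0794 and 0.229. edgeR without the low count filter, whose model takes depth into account, gave 0.81 (SE 0.736), 0.97 (SE 0.646) and 0.64 (SE 0.776), with adjusted p-values of 0.743, 0.745 and 0.821. The sizes of the Malat1 ASO and the OTV:Malat1 difference thus moved more than 1.5 times with the method. The conjugates differed from each other by -0.09 (exact permutation p = 0.929) and from the other groups by 0.31 (exact permutation p = 0.584). The direction of the first turned in 6 alternatives (up to 0.26, without OTV:Malat1 replicate 2) and that of the second without saline replicate 1 (-0.027). For scarcer members the permutation scale cannot be read in these nuclei: Steap3, with 1 UMI in the 8 saline and Malat1 ASO animals together, gave the same 1.88 with an exact p of 0.0286.

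Outside the vessels, Tfrc was higher in neurons than in astrocytes (17 ± 5.32 CPM) by 0.81, than in oligodendrocytes (12.2 ± 2.63 CPM) by 1.15 and than in microglia (9.57 ± 3.66 CPM) by 1.80 on the log2 scale, and each was called with and without TMM factors. Perivascular macrophages (16.5 ± 21.2 CPM) lay between astrocytes and oligodendrocytes and were not called different from either. Over the whole vascular label the level was 51.0 ± 33.5 CPM, and whether that exceeded neurons depended on the scaling: 0.30 (adjusted p = 0.161) with TMM and 1.02 (adjusted p = 9.7e-06) without. Across the deposited clusters, neuronal clusters 1, 3 and 4 had the highest Tfrc among those in which almost all nuclei are labelled neurons, at 28.7 ± 4.14, 28.7 ± 4.40 and 28.5 ± 2.26 CPM, while cluster 9, also labelled neurons, had 15.3 ± 3.03.

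**Figure D3:**
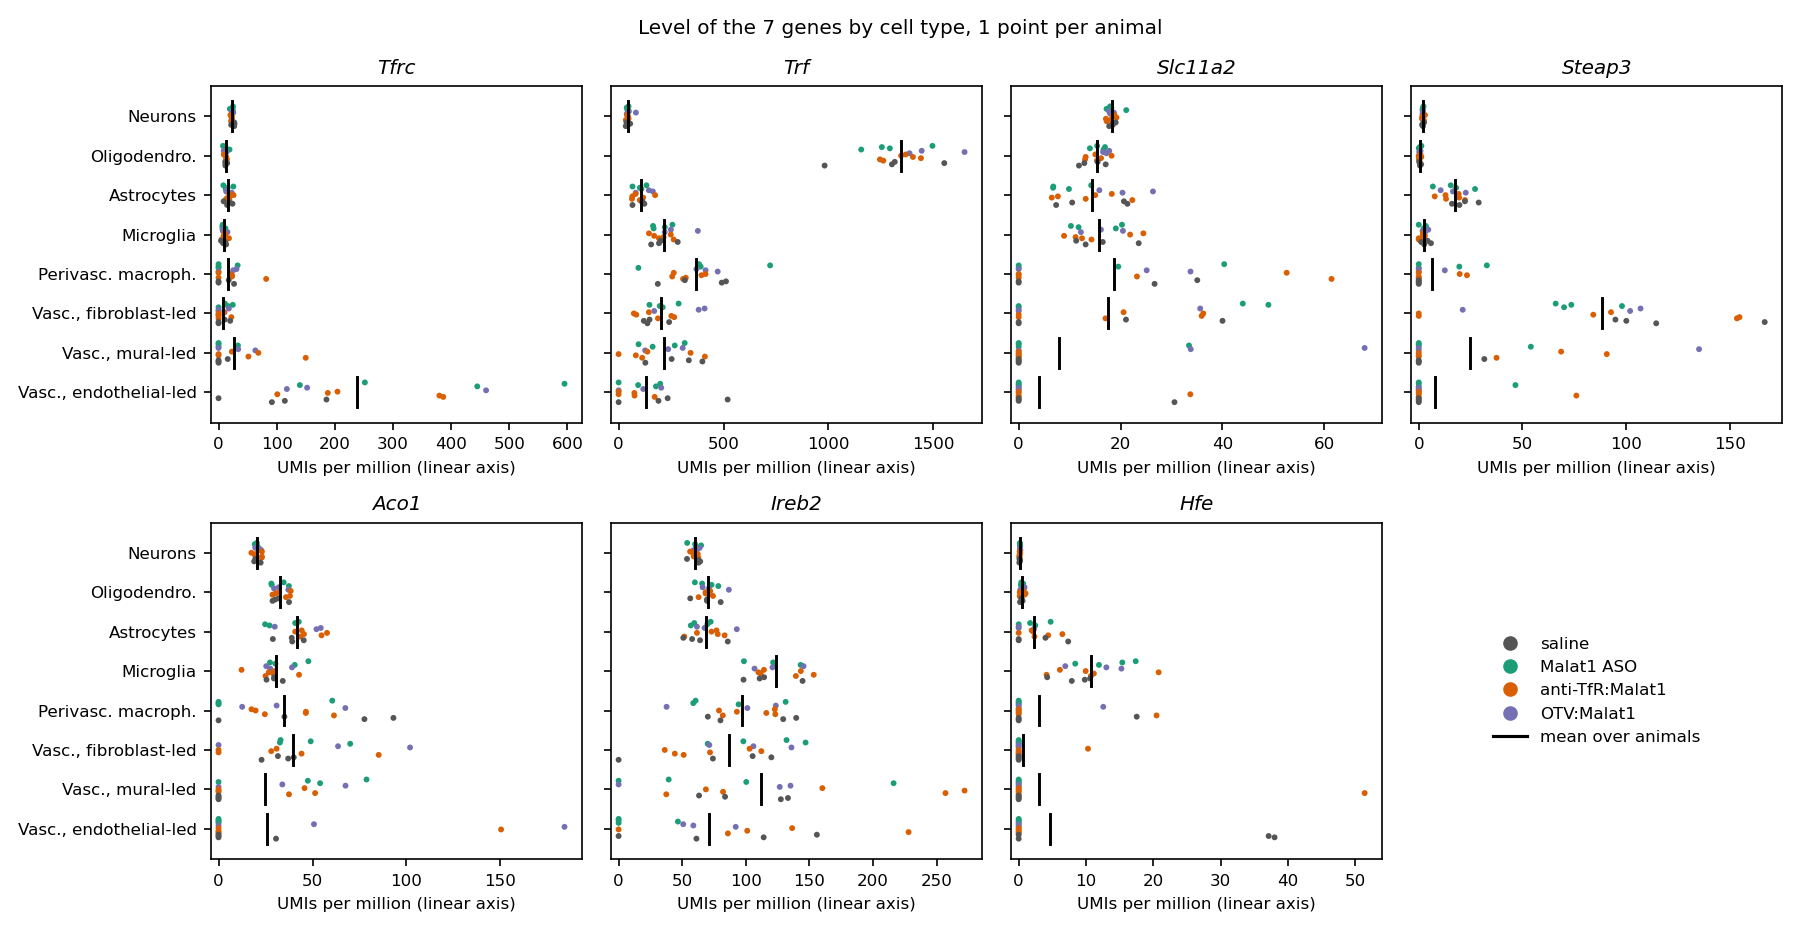
Levels of the 7 genes in CPM (linear axis) by cell type, 1 point per animal. Tfrc is highest in endothelial-led vascular nuclei, Trf in oligodendrocytes, Steap3 in fibroblast-led vascular nuclei and Hfe in microglia, of the cell types drawn.

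Between all 21 pairs of deposited labels, 68 of 126 tests of 6 members (Hfe was filtered out) were called with TMM factors, where 51.6% of all gene tests were, and 61 without them, where 50.5% were. Shares this near the background say nothing particular about the members as a group. Called in the same direction both ways were 17 of 21 pairs for Trf, 13 for Steap3, 11 for Tfrc, 4 each for Aco1 and Ireb2, and 1 for Slc11a2. The scaling shifted a pair by 0.03 to 0.85 log2 units (median 0.37), so pairwise values below are given with TMM first and without it second, except for Hfe, whose fit had TMM factors and no low count filter.

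Trf, the carrier, was highest in oligodendrocytes, at 1347 ± 154 CPM. Perivascular macrophages followed at 371 ± 141 CPM, 2.53 and 1.91 lower on the log2 scale, then microglia at 219 ± 57.9, the vascular label at 196 ± 87.2, Glia at 169 (5 animals), astrocytes at 107 ± 34.0 and neurons at 45.1 ± 11.0. Without the nuclei that the authors called doublets, Trf in neurons was 26.1 CPM and in astrocytes 50.6 CPM. The part of RNA from oligodendrocytes in the Trf of other labels was not tested.

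Treatment left no called difference in Trf. In oligodendrocytes the saline animals read 1316, 1552, 1303 and 982 CPM, the Malat1 ASO animals 1496, 1254, 1293 and 1156, and the OTV:Malat1 animals 1444, 1649 and 1386, while the anti-TfR:Malat1 animals ran from 1245 through 1357 to 1441. The groups overlapped. In CPM the mean was 1493 ± 138 (SD, n = 3) with the transport vehicle and 1288 ± 234 (n = 4) after saline, a gap that was nearly gone in the fit with TMM factors. Fitted log2 differences from saline were 0.01 (SE 0.107) for Malat1 ASO, 0.00 (SE 0.098) for anti-TfR:Malat1 and 0.03 (SE 0.116) for OTV:Malat1.

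The other 2 unadjusted p-values under 0.05 were both Trf in OTV:Malat1 against anti-TfR:Malat1. In microglia the OTV:Malat1 animals read 249, 378 and 220 CPM and the anti-TfR:Malat1 animals ran from 145 through 203 to 263, a difference of 0.43 (SE 0.192, edgeR adjusted p = 0.979). That value rested on 1 animal: it was 0.16, with an unadjusted edgeR p of 0.452, without OTV:Malat1 replicate 2, and at most 0.57 with any other animal left out. In the vascular label they read 387, 285 and 140 against 38.5 through 150 to 272, a difference of 0.92 (SE 0.390, edgeR adjusted p = 0.999), which fell to 0.59, with an unadjusted edgeR p of 0.219, without OTV:Malat1 replicate 1 and was at most 1.19 with any other left out. Oligodendrocyte markers moved with both: the list of 7 summed to 1603, 2387 and 1105 CPM in the microglia of the OTV:Malat1 animals and to 977 to 1422 in those of the anti-TfR:Malat1 animals. In the vascular label the list summed to 2120, 1891 and 1508 CPM in the OTV:Malat1 animals and to 565 to 1776 in the anti-TfR:Malat1 animals. Its part in either result was not tested. Over all nuclei, Trf ran from 120 to 278 CPM while oligodendrocytes made up 20.7 to 34.1% of nuclei.

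Slc11a2, the endosomal iron transporter, stood at 18.7 CPM in perivascular macrophages, 18.3 ± 0.94 in neurons, 15.8 in microglia, 15.5 in oligodendrocytes, 14.7 in the vascular label and 14.3 in astrocytes. The label Glia, which holds 225 nuclei in all, had 3.92 CPM over the 5 animals with 20 or more such nuclei, and astrocytes were above it by 2.80 (edgeR adjusted p = 0.0342) and 2.22 (adjusted p = 0.171) under the scalings. Only neurons against oligodendrocytes was called under both scalings, at 0.44 and 0.26 on the log2 scale. In neurons all 17 animals lay between 17.1 and 21.1 CPM, and its 20 fitted treatment differences ran from -0.10 to 0.13. Slc11a2 overlaps the antisense gene Gm5475, and whether the counting used strand is not stated.

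Steap3, the endosomal iron reductase, had its highest mean in fibroblast-led vascular nuclei, at 88.1 ± 48.4 CPM. Mural-led nuclei had 24.6 CPM, astrocytes 17.6 ± 6.19, Glia 8.70 (5 animals), endothelial-led nuclei 7.66, perivascular macrophages 6.35, microglia 2.46, neurons 2.06 ± 0.38 and oligodendrocytes 0.56. The fibroblast-led nuclei exceeded astrocytes by 1.98 and 2.39, mural-led nuclei by 1.90 and 1.72 and neurons by 4.76 and 5.44 on the log2 scale. The value of endothelial-led minus fibroblast-led nuclei was -4.17 and -3.72, and each of these was called under both scalings. Astrocyte markers were also higher in the fibroblast-led nuclei: the list of 6 summed to 1525 CPM there, 414 in mural-led and 197 in endothelial-led nuclei, and to 7584 in astrocytes. The part of astrocyte RNA in the Steap3 of these nuclei was not tested. The receptor and the reductase of its cycle had their highest means in different nuclei of the same deposited label. Steap3 also marked 2 clusters labelled neurons: cluster 9 had 12 ± 1.95 CPM and cluster 13, in which the precursor genes Pdgfra and Vcan were among the leading genes, 14.5 ± 4.24, while the other clusters labelled neurons above all, apart from cluster 17 at 4.27, were at or under 2.30.

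**Figure D4:**
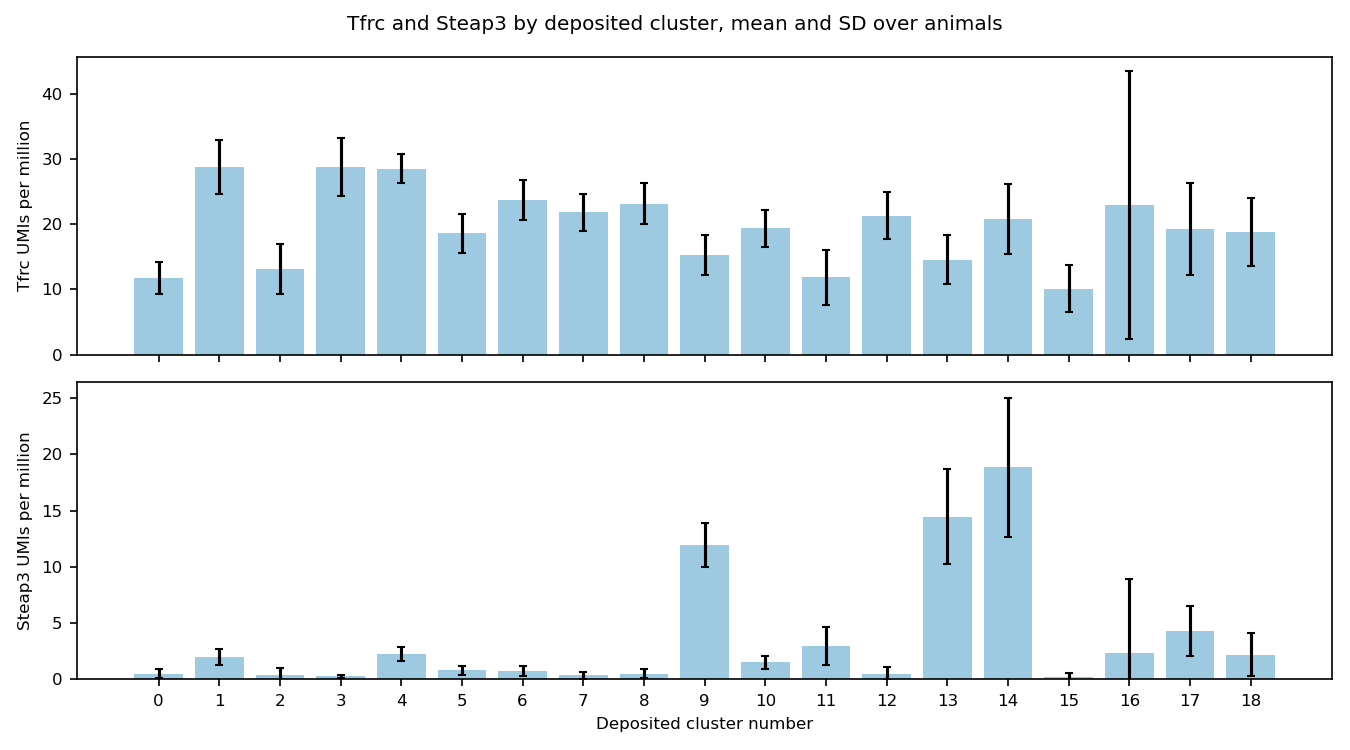
Tfrc and Steap3 in CPM by deposited cluster number, mean and SD over animals with 20 or more nuclei. Tfrc is near 28.7 in clusters 1 and 3 and 15.3 in cluster 9, and Steap3 stands at 12 in cluster 9, 14.5 in cluster 13 and 18.8 in cluster 14.

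In astrocytes Steap3 read 22.3, 28.9, 16 and 19.6 CPM in saline, 15.4, 6.80, 18 and 27.1 in Malat1 ASO and 10.6, 16.5 and 22.7 in OTV:Malat1, and ran from 7.70 through 16.2 to 22.3 in anti-TfR:Malat1. All groups overlapped. The differences from saline were -0.45 (SE 0.365), -0.54 (SE 0.398) and -0.39 (SE 0.329) in that order, and none was called. The second of these ran from -0.81 without OTV:Malat1 replicate 3 to -0.31 without OTV:Malat1 replicate 1.

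Of the sensors, Aco1 had its highest mean in astrocytes at 41.8 ± 9.85 CPM, with the label Glia at 35.0 (5 animals), perivascular macrophages at 34.9, the vascular label at 34.3, oligodendrocytes at 32.9 ± 3.84, microglia at 30.7 ± 8.25 and neurons at 20.7 ± 1.72. Astrocytes exceeded oligodendrocytes by 0.24 and 0.34 and neurons by 0.71 and 0.99 under the scalings, each called. Their difference of 0.61 and 0.04 from Glia was not called (edgeR adjusted p = 0.298 and 0.977), and those from perivascular macrophages and the vascular label were called only with TMM factors. Under treatment, Aco1 in astrocytes read 38.9, 28.9, 45.4 and 39.2 CPM in saline, 42.7, 40.8, 24.8 and 27.1 in Malat1 ASO and 29.9, 54.4 and 52.1 in OTV:Malat1, and ran from 40.8 through 44.9 to 57.7 in anti-TfR:Malat1. The groups overlapped. Both conjugates against the other groups differed by 0.25 (SE 0.164), with an unadjusted p of 0.145 by edgeR's quasi-likelihood test.

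Ireb2 had its highest mean in microglia, at 123 ± 17.8 CPM, with 106 ± 28.9 in the label Glia (5 animals), 96.6 in perivascular macrophages, 88.6 in the vascular label, 70.2 ± 7.34 in oligodendrocytes, 68.4 ± 12.1 in astrocytes and 60.4 ± 3.35 in neurons. Microglia exceeded neurons by 0.55 and 1.03, oligodendrocytes by 0.54 and 0.83 and astrocytes by 0.66 and 0.86 on the log2 scale. Over the label Glia the difference was 0.51 and 0.12, with edgeR adjusted p-values of 0.0751 and 0.758. Neither order of oligodendrocytes and astrocytes was called. In microglia the saline animals read 114, 111, 98.2 and 145 CPM, the Malat1 ASO animals 98.5, 121, 123 and 143, the OTV:Malat1 animals 145, 121 and 107, and the anti-TfR:Malat1 animals ran from 110 through 126 to 153. The groups covered one another, and all 30 fitted treatment differences of Ireb2 lay between -0.09 and 0.29.

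Hfe, which encodes a partner of the receptor, had its highest mean in microglia and in the label Glia. It stood at 10.8 ± 4.55 CPM in microglia, with a UMI in 1.08% of them, and at 10.5 CPM in Glia, where it rested on 3 UMIs of 1 animal, against 2.97 in perivascular macrophages, 2.34 in astrocytes, 2.30 in the vascular label, 0.50 in oligodendrocytes and 0.18 in neurons. Without the low count filter, edgeR put microglia above neurons by 5.16 (SE 0.230), above oligodendrocytes by 3.98 and above astrocytes by 1.86, while the difference of 1.78 from perivascular macrophages had an adjusted p of 0.061 and that of 0.43 from Glia one of 0.962. In microglia Hfe read 4.24, 10.6, 9.82 and 7.89 CPM in saline, 17.4, 15.4, 8.40 and 11.9 in Malat1 ASO and 6.92, 13 and 15.3 in OTV:Malat1, and ran from 4.14 through 10.3 to 20.8 in anti-TfR:Malat1. The groups overlapped, and Hfe passed the filter for treatment tests only in all nuclei and in neurons.

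The wider pathway gave no call either. Of 21 partners of the receptor cycle 20 were tested, and of 17 targets and regulators of the iron regulatory proteins 17. Of 12 gene symbols of the hepcidin axis, which stand for 10 genes, 9 were tested. In 1115 tests over labels and contrasts 0 were higher and 0 lower at an adjusted p under 0.05, and the lowest adjusted p was 0.873. An unadjusted p under 0.05 was seen in 33 (2.96%), against 0.604 to 5.15% of all genes in the same 40 comparisons (median 2.93%), so the share was near the background. In endothelial-led nuclei the share of all genes called was 0% in each contrast. List medians ran from -0.35 to 0.57 over labels and contrasts, both for 3 tested targets and regulators of the iron regulatory proteins in endothelial-led nuclei. The lowest was that of Malat1 ASO against saline, where the median of all genes tested was -0.0067, and the highest came from the 2 conjugates set against each other, where it was 0.0860. For anti-TfR:Malat1 in all nuclei, the median log2 difference of the receptor cycle partners was -0.01 and that of all genes tested was -0.0026.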

How the data were processed

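The authors deposited 1 matrix of UMI counts (26131 genes by 284074 nuclei) with a table of animal, label, cluster, batch and doublet call per nucleus. Cell Ranger 6.0.1, Seurat 4 and mm10 are named, per the submitters' processing notes, and the doublet caller and label reference are not given in the sources used here. Summed counts per nucleus matched the deposited totals in all 284074 nuclei. The authors' doublets (47758 nuclei, 16.8%) were kept, as deposited, and left out as an alternative. Counts were summed per animal and label (20 or more nuclei, or 5 for endothelial-, mural- and fibroblast-led nuclei) and fitted over all 17 animals with edgeR 4.0.16 (TMM, filterByExpr, quasi-likelihood, Benjamini-Hochberg over all genes). Single values were tested by exact permutation with scipy 1.17.1. Alternatives included DESeq2 1.42.0. The edgeR fit was tested on simulated data. The members and gene lists were chosen with earlier results of these data known. Named genes were the 7 members and, for likeness, the 3 genes with the highest Pearson correlation over clusters. The p-values of treatment contrasts rest on the spread between animals. Those between labels come from fits with animal as a block, and rest on how much label differences vary from animal to animal. Coordinates are from GENCODE M21 (GRCm38).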

Additional observations from a re-analysis of the deposited data

Results flagged for a closer look

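In 96 groups of 4 to 6 animals, 8 held 1 animal far from the rest of its group by Dixon's criterion at the 95% level, and chance flags about 1 in 20 groups. Tfrc in neurons was low in saline replicate 3 (21.8 CPM, the others 26.9 to 27.4) and in Malat1 ASO replicate 3 (19.5 CPM, the others 24.0 to 24.9). Tfrc in oligodendrocytes was high in saline replicate 2 (14.9 CPM, the others 11.5 to 12). Malat1 ASO replicate 1 was high over all nuclei in Trf (242 CPM, the others 138 to 153) and in Steap3 (2.47 CPM, the others 1.95 to 2.01). Ireb2 was low in saline replicate 1 over all nuclei (54.8 CPM, the others 64.1 to 65.1) and in neurons (53.8 CPM, the others 62.7 to 64.1). Hfe over all nuclei was low in anti-TfR:Malat1 replicate 5 (0.185 CPM, the others 0.292 to 0.335).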

How the results depend on the processing

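In 28 alternatives to the fit, 0 members were called, with 4398 member tests in all 29 settings and a lowest adjusted p of 0.690. The fits that left out each animal in turn are among these alternatives (range of calls 0 to 0). For Tfrc in endothelial-led nuclei, an unadjusted exact permutation p under 0.05 was reached against saline in some alternatives. Without the authors' doublets it was reached for Malat1 ASO (1.88, exact p = 0.0286) and for anti-TfR:Malat1 (1.4, exact p = 0.0159). For anti-TfR:Malat1 it was also reached without nuclei with erythroid UMIs (1.11, exact p = 0.0317, added after seeing the data). Leaving out anti-TfR:Malat1 replicate 3 gave 1.55 (exact p = 0.0286). Apart from the erythroid alternative, these are the lowest p-values the exact test can give. In them, every animal of the treated group lay above every saline animal on the log2 permutation scale, which is not neutral to depth. Adjusted over the 5 contrasts of a setting, 0 of 120 such exact tests passed (lowest 0.0714). With the animals of the main setting, no contrast with saline could pass on its own, even at the lowest p the exact test can give. The count of 0 therefore does not show that Tfrc was unchanged. Leaving out 1 animal, the differences ran from 1.41 to 2.29 for Malat1 ASO, 0.81 to 1.61 for anti-TfR:Malat1, 0.65 to 1.54 for OTV:Malat1, -0.027 (without saline replicate 1) to 0.57 for both conjugates against the others, and -0.63 to 0.26 for OTV:Malat1 against anti-TfR:Malat1. The last also changed sign without erythroid nuclei (0.10) and over the whole vascular label (0.12), and without OTV:Malat1 replicate 1 (0.12) or 2 (0.26) or anti-TfR:Malat1 replicate 5 (0.10) or 6 (0.09). Over the whole vascular label the differences from saline were smaller, at 0.57 (exact permutation p = 0.371) for Malat1 ASO, 0.62 (exact p = 0.390) for anti-TfR:Malat1 and 0.74 (exact p = 0.286) for OTV:Malat1. With animals of 10 or more endothelial-led nuclei, OTV:Malat1 differed from saline by 0.65 and from anti-TfR:Malat1 by -0.75, and both conjugates from the others by 0.61. The cause was not tested. The depth of 0 to 9 Tfrc UMIs per animal limits these values.

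The replicate number in the titles equalled the batch number in saline, in Malat1 ASO and in anti-TfR:Malat1 replicates 1 to 3, and not in the other animals. It therefore does not pair the animals across all groups. Deviations of same-numbered animals correlated from -0.46 to 0.72 (21 pairs, median 0.048, 9 over 0.1), and some of these pairs share a batch. Animals of the same batch had a median of 0.44 (27 pairs). With the replicate number as a block, 0 members were called (lowest adjusted p 0.881), and 9 of 15 animals correlated best with their own number. With the batch number as a block 0 were called (lowest adjusted p 0.878).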

Other observations

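Across the 20 deposited clusters, and among 9782 genes of 10 or more CPM over all nuclei, the patterns most like those of the members were found by Pearson correlation of log2(CPM + 1), a description over clusters that share animals and depth. Tfrc was most like Nyap2 (0.93), Vwa5b2 (0.92) and Sclt1 (0.92), and Trf like Qdpr (0.99), Kif13b (0.98) and the myelin gene Mag (0.98). Slc11a2 was most like Ptpn23 (0.87), Steap3 like Maml2 (0.84), Aco1 like Gm31323 (0.94), Ireb2 like Mapk1ip1l (0.96) and Hfe like Osbpl11 (0.97).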
